A study of Mus musculus with 20 samples.

Results

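Zscan4a, Zscan4b, Zscan4c, Zscan4d, Zscan4e, Zscan4f, Zfp352, Tcstv1 and Tcstv3 are 9 mouse genes known for a burst of transcription in the 2-cell embryo. They were taken by gene name from the expression table, where all 9 were found among 53560 genes and loci, and by name from the histone mark tables, where 8 were found. Zscan4a was not matched there and its marks were not analysed here.

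At the 2-cell stage the mouse embryo begins to transcribe its own genome, and these genes belong to that first wave. In cultures of mouse embryonic stem (ES) cells a small, changing fraction of cells enters a state that resembles the 2-cell embryo and switches the same genes on, so that a bulk library reads mostly the rare cells. The homeobox factor Dux can drive this state, and several chromatin factors, among them the histone chaperone CAF-1, are known to restrain it. Zscan4 proteins carry a SCAN domain and zinc fingers, and they are known for a role in telomere maintenance in mouse ES cells.

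The cells were TL1, a mouse ES cell line. In the knockout (KO) cells p150 had been depleted with CRISPR/Cas9. p150 is the large subunit of CAF-1, which deposits histones on newly copied DNA, and it is encoded by Chaf1a. Wild type (WT) cells were the comparison, with no other allele or agent named. Each genotype was sampled as embryoid bodies (EB), aggregates that differentiate in medium without LIF, and as ES cells in medium with serum and LIF. The time in EB culture and whether the KO cells were 1 clone are not given in the sources used here. RNA-seq had 2 libraries in each of the 4 groups (EB KO, EB WT, ES KO and ES WT), and ChIP-seq of H3K27me3 and of H3K4me3 had 1 library per mark and group. The labels do not say that the 2 RNA libraries of a group came from separate cultures, so p-values may reflect technical spread alone.

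RNA levels are given in FPKM, fragments scaled to transcript length and library size, as the authors deposited them. Library totals ran from 641813 to 782026 FPKM, and the number of reads behind them is not given. Chaf1a itself read 31.6 and 35.0 FPKM in EB KO, 31.7 and 32.1 in EB WT, 48.1 and 38.0 in ES KO, and 49.5 and 43.0 in ES WT. A small CRISPR lesion need not change a gene's FPKM, so Chaf1a is no check of the genotype. The ES cell marker Pou5f1 read 547 and 508 FPKM in EB KO, 35.3 and 65.9 in EB WT, 1074 and 946 in ES KO, and 1298 and 1233 in ES WT. No marker of ES cells, differentiated EB, fibroblasts and feeders, trophoblast or primitive endoderm was at 0 in both libraries of any group.

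The 6 Zscan4 copies form a cluster on chromosome 7 (mm10), from 10794242, the start of Zscan4a (ENSMUSG00000110097.1), to 11402318, the end of Zscan4f (ENSMUSG00000070828.10). RefSeq annotates Zscan4a as a transcribed pseudogene and Zscan4e as a pseudogene, and the other Zscan4 copies as protein coding. Zfp352 (ENSMUSG00000070902.5), a zinc finger gene used as a marker of the 2-cell-like state, lies on chromosome 4 from 90218820 to 90225702. Tcstv1 and Tcstv3, of the 2-cell-stage variable group, lie on chromosome 13 from 119893388 to 119894785 and from 120316878 to 120318178.

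Promoter sequences are shown because the Zscan4 copies are near-identical, which bears on every value given for a single copy. RefSeq held a promoter window of 300 bases, 250 before the annotated start and 50 after it, for 5 of the 9 members (build GRCm38.p6, the assembly of mm10). Aligned windows of Zscan4b, Zscan4c, Zscan4d and Zscan4f were 95.3% to 99.3% identical in pairs. The window of Zscan4f, the copy with the highest RNA level, is chr7:11397665-11397964 on the plus strand, and that of Zscan4d, known as the copy of the 2-cell embryo, is chr7:11166099-11166398 on the minus strand. The window of Zfp352 is chr4:90218570-90218869 on the plus strand. Capitals mark TGATAGAATCA and TATAAA.
Zscan4f: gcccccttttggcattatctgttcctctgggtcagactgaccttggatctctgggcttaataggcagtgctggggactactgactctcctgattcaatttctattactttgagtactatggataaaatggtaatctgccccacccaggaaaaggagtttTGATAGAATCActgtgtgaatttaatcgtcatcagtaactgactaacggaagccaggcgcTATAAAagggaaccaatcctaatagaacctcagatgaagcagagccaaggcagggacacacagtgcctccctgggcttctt
Zscan4d: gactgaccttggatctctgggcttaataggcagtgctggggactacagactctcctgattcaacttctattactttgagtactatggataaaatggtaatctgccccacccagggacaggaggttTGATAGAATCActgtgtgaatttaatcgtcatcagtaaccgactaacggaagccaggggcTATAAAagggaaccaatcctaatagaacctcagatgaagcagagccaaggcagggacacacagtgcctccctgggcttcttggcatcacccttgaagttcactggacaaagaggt
Zfp352: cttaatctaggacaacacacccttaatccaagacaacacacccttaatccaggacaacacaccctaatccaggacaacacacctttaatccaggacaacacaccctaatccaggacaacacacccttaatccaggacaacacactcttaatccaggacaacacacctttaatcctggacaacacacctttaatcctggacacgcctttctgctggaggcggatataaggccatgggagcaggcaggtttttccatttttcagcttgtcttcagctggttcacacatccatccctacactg

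The letters TATAAA, the core of the TATA box, stood on the gene strand in all 4 Zscan4 windows, 31 to 65 bases before the annotated start, and not in that of Zfp352. Of 32851 RefSeq promoter windows of the same length, 13.6% held these letters on either strand and 8.32% on the gene strand. The motif of Dux was searched as its half-sites. TGATT and AATCA with 1 open letter between them matched 0 of the 5 members' windows and 0.0335% of all windows on either strand. TGAT and AATCA with 2 open letters between them, a looser form chosen after the sequences were seen, matched the 4 Zscan4 windows and 0.207% of all windows. The match was TGATAGAATCA in each of the 4, 91 to 125 bases before the start, and it does not overlap TATAAA. The Zscan4 windows held 1 to 4 CpG dinucleotides and that of Zfp352 held 2, against a median of 7 over all windows.

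All 6 Zscan4 copies had their highest RNA level in ES KO and their lowest in EB WT. Their sum was 0.550 and 1.15 FPKM in EB KO, 0 and 0.0315 in EB WT, 40.9 and 11.6 in ES KO, and 5.40 and 1.70 in ES WT. The mean sum was 0.848 ± 0.422 FPKM in EB KO, 0.0157 ± 0.0223 in EB WT, 26.3 ± 20.8 in ES KO and 3.55 ± 2.62 in ES WT (SD, n = 2 each). The order of the groups was therefore ES KO, ES WT, EB KO and EB WT, and no neighbours in that order overlapped. Libraries of 1 group differed by 3.53-fold in ES KO, 3.18-fold in ES WT and 2.09-fold in EB KO, with replicate 1 the higher in both ES groups. In bulk RNA, fewer cells of a type and less RNA per cell cannot be told apart, so the sums do not say how many cells expressed Zscan4.

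**Figure D1:**
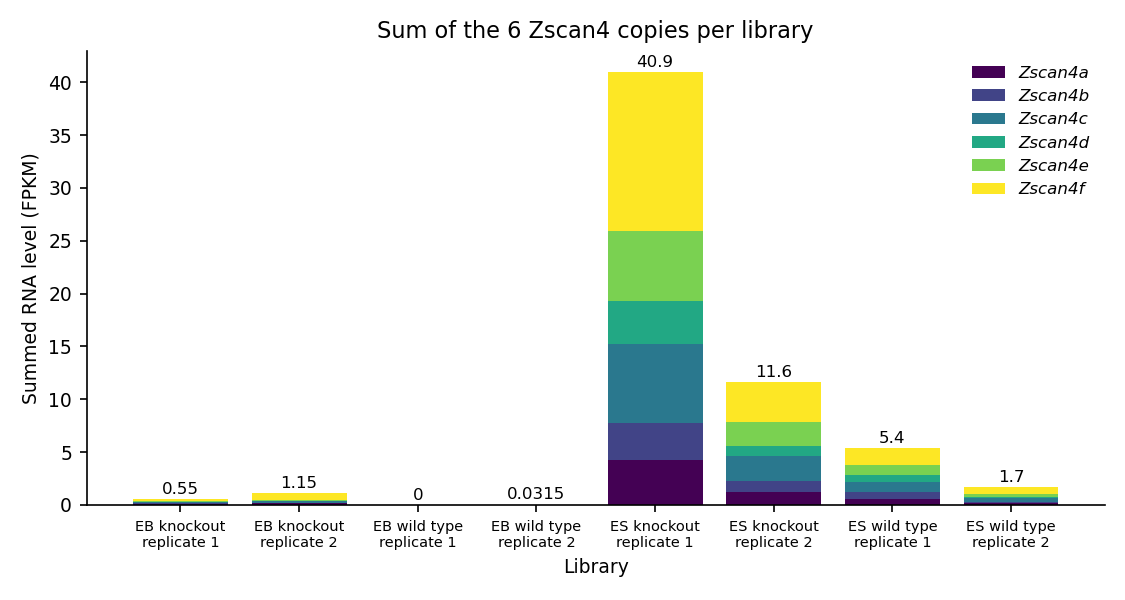
Summed RNA level in FPKM of the 6 Zscan4 copies in each of the 8 RNA libraries, with each copy as a segment of the bar. The ES KO libraries stand at 40.9 and 11.6, the ES WT libraries at 5.40 and 1.70, and no EB library is above 1.15.

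Because FPKM is scaled to transcript length, the copies can be set beside each other. In the 4 ES libraries Zscan4f held 30.3% to 39.8% of the Zscan4 sum, Zscan4c, known as the copy of ES cells, held 18.2% to 20.4%, and Zscan4e held 15.6% to 19.1%. Zscan4a held 10.3% to 11.0%, Zscan4b 7.37% to 10.9% and Zscan4d 6.23% to 10.9%. Neighbouring ranges overlapped for Zscan4c and Zscan4e and for the last 3 copies. How the authors' counting split reads between near-identical copies is not given in the sources used here, so the sum is firmer than any single copy.

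**Figure D2:**
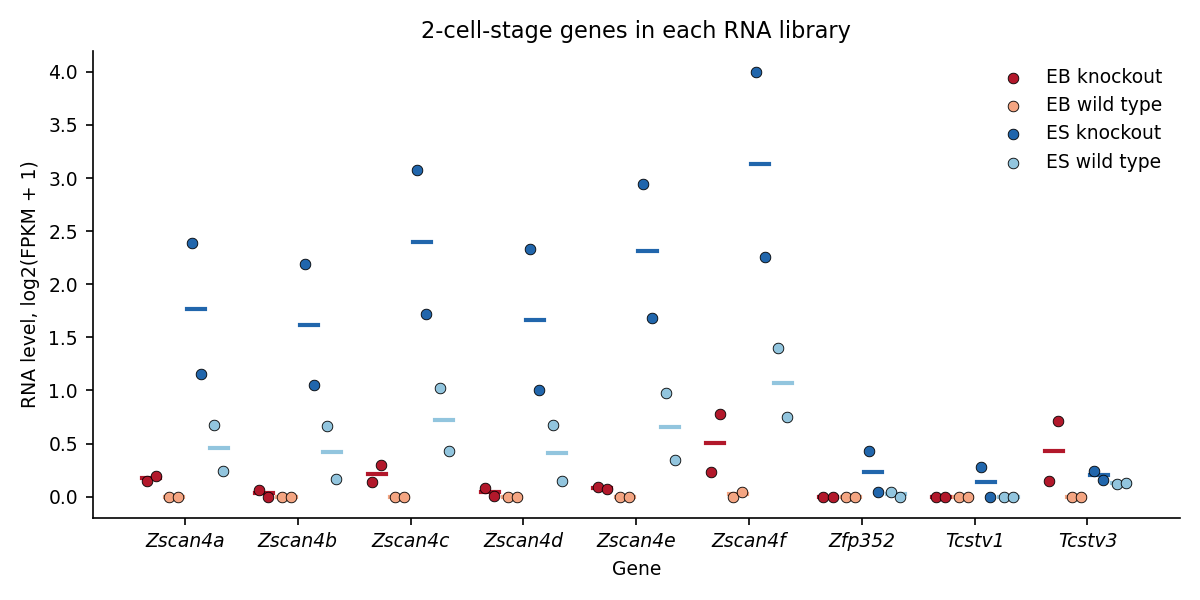
RNA level of each of the 9 genes as log2(FPKM + 1), with 1 point per library and a line at the group mean, in the order EB KO, EB WT, ES KO and ES WT within a gene. The 6 Zscan4 copies peak in ES KO, and Zfp352, Tcstv1 and Tcstv3 stay below 1 on this scale.

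Whether loss of CAF-1 raises 2-cell-stage genes in ES cells is asked by setting ES KO against ES WT. Every Zscan4 copy was higher in both ES KO libraries than in both ES WT libraries. Zscan4f read 15.0 and 3.79 FPKM in ES KO, against 1.64 and 0.677 in ES WT. Zscan4c read 7.44 and 2.29 in ES KO, against 1.03 and 0.347 in ES WT. Zscan4e read 6.68 and 2.22 in ES KO, against 0.971 and 0.266 in ES WT. The ES KO groups of all 3 lay wholly above their ES WT groups. Zscan4a read 4.23 and 1.23 FPKM in ES KO, against 0.592 and 0.180 in ES WT. Zscan4b read 3.55 and 1.07 in ES KO, against 0.587 and 0.125 in ES WT. Zscan4d read 4.05 and 0.9999 in ES KO, against 0.591 and 0.106 in ES WT. These 3 copies, at a lower level, showed the same order of groups.

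The ratio of group means was 7.39 for the Zscan4 sum, 7.57 between the libraries numbered 1 and 6.81 between those numbered 2, and from 6.49 (Zscan4b) to 8.11 (Zscan4f) for single copies. The lower ES KO library was 2.15-fold above the higher ES WT library in the sum.

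With Tcstv3, 7 of the 9 members did not overlap between the ES groups, all higher in ES KO, while 21.2% of all genes above 0 in these libraries did so in that direction. Here and in the counts of members below, the near-identical Zscan4 copies may share reads and are not separate results. Tcstv3 read 0.184 and 0.116 FPKM in ES KO, against 0.0869 and 0.0919 in ES WT. Zfp352 read 0.344 and 0.0324 in ES KO, against 0.0325 and 0 in ES WT. Tcstv1, which is known to promote telomere lengthening in mouse ES cells, was listed at 0 in 7 of the 8 libraries and read 0.212 in ES KO replicate 1. Zfp352 and Tcstv1 were each raised in a single ES KO library and overlapped with ES WT.

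The differences between ES KO and ES WT did not pass the test across all genes. The test was limma on log2(FPKM + 1), for genes that reached 1 FPKM in 2 or more libraries, with p-values adjusted over 15428 genes and a threshold of 0.05. The 5 members that passed this filter, Zscan4a, Zscan4b, Zscan4c, Zscan4e and Zscan4f, passed it through both ES KO libraries, so their being high there is no finding. Zscan4d missed the filter narrowly, at 0.9999 FPKM in its second highest library, and Zfp352, Tcstv1 and Tcstv3 were far below it. Between ES KO and ES WT limma called 0 of the 5, while 0.421% of all tested genes were called higher. Zscan4f had the largest difference of the 5, 2.06 ± 0.54 on the log2 scale (SE, limma adjusted p = 0.160). Zscan4c was at 1.67 ± 0.42 (limma adjusted p = 0.146) and Zscan4b at 1.20 ± 0.36 (limma adjusted p = 0.209). All 5 had an unadjusted limma p under 0.05, and an exact permutation test of 2 against 2 libraries cannot go below 0.33.

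Some cell type markers moved between the same libraries. Of 8 fibroblast and feeder markers 1 was called higher, the surface glycoprotein Thy1, at 47.7 and 41.3 FPKM in ES KO, against 4.40 and 7.39 in ES WT. The other 7 summed to 2.53 and 2.52 FPKM in ES KO, against 1.88 and 2.03 in ES WT. The 7 trophoblast markers summed to 95.4 and 95.1 FPKM in ES KO, against 46.3 and 41.7 in ES WT. Of 6 tested, 1 was called higher, the keratin Krt18, and 3 had an unadjusted p under 0.05. Most of the difference in the sum lay in the keratins Krt8 and Krt18. Their means were 32.2 and 30.6 FPKM in ES KO, against 7.74 and 5.54 in ES WT. Hand1 and Cdx2 were higher in the mean of ES KO and Elf5 lower. Tfap2c and Eomes were near level, at means of 28.6 and 1.21 FPKM in ES KO, against 28.4 and 1.28 in ES WT. The 5 primitive endoderm markers summed to 6.36 and 4.04 FPKM in ES KO, against 3.77 and 1.25 in ES WT, with 0 called by limma and 0 at an unadjusted p under 0.05. The 7 differentiated EB markers summed to 8.4 and 5.3 FPKM in ES KO, against 3.5 and 1.7 in ES WT. limma results were read for 6 of them, with 0 called and 1 at an unadjusted p under 0.05. The result of T, which also passed the filter, was not read. Unlike the sum of the list, T was lower in ES KO, at 0.224 and 0.0900 FPKM against 0.366 and 0.352 in ES WT. The 7 ES cell markers summed to 2364 and 2421 FPKM in ES KO, against 2851 and 2861 in ES WT, with 0 called and 1 at an unadjusted p under 0.05. The part of these markers in the Zscan4 difference was not tested.

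In EB the question is whether 2-cell-stage genes stay on in KO cells once differentiation has begun. They were near 0 in both genotypes. Zscan4f read 0.174 and 0.720 FPKM in EB KO, against 0 and 0.0315 in EB WT. Tcstv3 read 0.109 and 0.643 FPKM in EB KO and was listed at 0 in both EB WT libraries, and EB KO replicate 2 was its highest library of all 8. Zscan4c read 0.100 and 0.226 FPKM in EB KO and Zscan4a 0.107 and 0.146, both listed at 0 in EB WT.

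In all, 6 of the 9 members were higher in both EB KO libraries than in both EB WT libraries (Zscan4a, Zscan4c, Zscan4d, Zscan4e, Zscan4f and Tcstv3), against 25.8% of all genes above 0. Zscan4b was listed at 0 in 1 EB KO library, and Zfp352 and Tcstv1 in every EB library. limma called 0 of the 5 tested members, with 0 at an unadjusted p under 0.05, while 20% of all tested genes were called higher in EB KO. Their differences ran from 0.03 ± 0.36 for Zscan4b (SE, limma adjusted p = 0.953) to 0.48 ± 0.54 for Zscan4f (limma adjusted p = 0.498). At these levels a change on the log2(FPKM + 1) scale is compressed, and a difference in EB was not detectable. The ES cell markers moved with genotype in EB, at a sum of 1550 and 1247 FPKM in EB KO, against 133 and 212 in EB WT, with 7 of 7 called higher. The differentiated EB markers summed to 47.8 and 124 FPKM in EB KO, against 1578 and 923 in EB WT. All 6 whose limma result was read, without T, were called lower. The fibroblast and feeder markers summed to 38.2 and 71.8 FPKM in EB KO, against 690 and 888 in EB WT, with 1 of 8 called higher and 7 lower. Trophoblast markers summed to 686 and 545 FPKM in EB KO, against 768 and 667 in EB WT. Of 6 tested, 2 were called higher and 2 lower. Primitive endoderm markers summed to 39.0 and 90.9 FPKM in EB KO, against 222.5 and 224.2 in EB WT, with 3 of 5 called lower. Their part in the Zscan4 values was not tested.

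On the log2(FPKM + 1) scale the fitted KO effect on Zscan4 was smaller in EB than in ES, but the difference of the effects was not called for any of the 5 copies, and 2 had an unadjusted limma p under 0.05. It ran from -1.14 ± 0.53 for Zscan4a (SE, limma adjusted p = 0.145) to -1.57 ± 0.57 for Zscan4e (limma adjusted p = 0.0745). Of all tested genes, 18.6% were called in that direction and 12.7% in the other. The 5 copies passed the filter on low values through both ES KO libraries, which favours a lower effect in EB than in ES, so their direction here is a description. Without ES KO replicate 2 all 5 copies were called, at limma adjusted p from 0.0175 to 0.0211, so this result depends on 1 library. On the ratio scale the order turned: the Zscan4 sum of KO over WT had a ratio of means of 53.9 in EB, where EB WT had 1 library at 0 and 1 at 0.0315 FPKM, and of 7.39 in ES.

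Setting EB against ES within a genotype asks how the genes behave as the cells leave pluripotency. Within KO cells Zscan4 was lower in EB than in ES. The Zscan4 sum averaged 0.848 ± 0.422 FPKM in EB KO and 26.3 ± 20.8 in ES KO (SD, n = 2 each), and EB KO was 31.0-fold lower in the means. The ratio of EB KO to ES KO was 0.0134 between the libraries numbered 1 and 0.0989 between those numbered 2. Of the 9 members, 7 were lower in both EB KO libraries than in both ES KO libraries, the 6 Zscan4 copies and Zfp352, against 24.8% of all genes above 0. Zfp352 was listed at 0 in both EB KO libraries, and its lower ES KO library held only 0.0324 FPKM. limma called 5 of the 5 tested copies lower, and 12% of all tested genes. Since these 5 entered the test through their ES KO values, the count is a description. Zscan4f was at -2.62 ± 0.54 (SE, limma adjusted p = 0.0131) and Zscan4e at -2.23 ± 0.40 (limma adjusted p = 0.00873). Zscan4c was at -2.18 ± 0.42 (limma adjusted p = 0.0110), Zscan4a at -1.60 ± 0.38 (limma adjusted p = 0.0209) and Zscan4b at -1.58 ± 0.36 (limma adjusted p = 0.0187). Without EB KO replicate 1 only Zscan4e was called, and without EB KO replicate 2 only Zscan4c, Zscan4e and Zscan4f. Cell type markers moved between the same libraries. The ES cell markers summed to 1550 and 1247 FPKM in EB KO, against 2364 and 2421 in ES KO, with 0 of 7 called higher and 3 lower. The trophoblast markers summed to 686 and 545 FPKM in EB KO, against 95.4 and 95.1 in ES KO, with 5 of 6 called higher. The keratins Krt8 and Krt18 held most of these sums. The primitive endoderm markers summed to 39.0 and 90.9 FPKM in EB KO, against 6.36 and 4.04 in ES KO, with 5 of 5 called higher. The differentiated EB markers summed to 47.8 and 124 FPKM in EB KO, against 8.4 and 5.3 in ES KO. Of the 6 whose limma result was read, without T, 4 were called higher. The fibroblast and feeder sums overlapped, at 38.2 and 71.8 FPKM in EB KO and 50.2 and 43.8 in ES KO. Of these 8 markers, 4 were called higher and 1, Thy1, lower. The 7 without Thy1 summed to 16.9 and 52.4 FPKM in EB KO, against 2.53 and 2.52 in ES KO. The part of these cell type markers in the Zscan4 values was not tested. Tcstv3 went against the rest, at 0.109 and 0.643 FPKM in EB KO and 0.184 and 0.116 in ES KO, with overlapping groups.

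Within WT cells the Zscan4 level in ES was itself lower than in KO cells. Of the 9 members, 7 were lower in both EB WT libraries than in both ES WT libraries, the 6 Zscan4 copies and Tcstv3, against 27% of all genes above 0. limma called 0 of the 5 tested copies, with 0 at an unadjusted p under 0.05, while 24.8% of all tested genes were called lower. The differences ran from -0.42 ± 0.36 for Zscan4b (SE, limma adjusted p = 0.350) to -1.05 ± 0.54 for Zscan4f (limma adjusted p = 0.130). Without either ES KO library, which enter this contrast only through the shared estimate of spread, Zscan4c and Zscan4f were called, at limma adjusted p from 0.0218 to 0.0376. Cell type markers moved between the same WT libraries. Fibroblast and feeder markers stood at 690 and 888 FPKM in EB WT, against 6.28 and 9.42 in ES WT. Of these 8, 7 were called higher in EB WT and 1, Thy1, lower. ES cell markers stood at 133 and 212 in EB WT, against 2851 and 2861 in ES WT. Differentiated EB markers stood at 1578 and 923 in EB WT, against 3.5 and 1.7 in ES WT. Trophoblast markers stood at 768 and 667 in EB WT, against 46.3 and 41.7 in ES WT, with 5 of 6 called higher and 1 lower. Primitive endoderm markers stood at 222.5 and 224.2 in EB WT, against 3.77 and 1.25 in ES WT, with 5 of 5 called higher. Their part in the Zscan4 values was not tested.

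The balance of calls over all tested genes depended on the scaling of the libraries. Of the calls between EB KO and ES KO, 58.8% were higher in EB KO as deposited, 49.2% with quantile normalization and 48.1% with totals of 1000000. Between EB WT and ES WT, 59.3%, 46.3% and 64% were higher in EB WT under the same settings, between EB KO and EB WT 43.6%, 50.7% and 30.7% were higher in EB KO, and for the difference of the KO effects the shares were 40.5%, 51.7% and 27.6%. The median over all genes was 0.12, -0.11 and 0.22 between EB WT and ES WT, -0.06, 0.03 and -0.25 between EB KO and EB WT, and -0.10, 0.05 and -0.30 for the difference of the effects. The 5 Zscan4 copies were called lower between EB KO and ES KO, and 0 were called in the other contrasts, under all 3 settings.

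**Figure D3:**
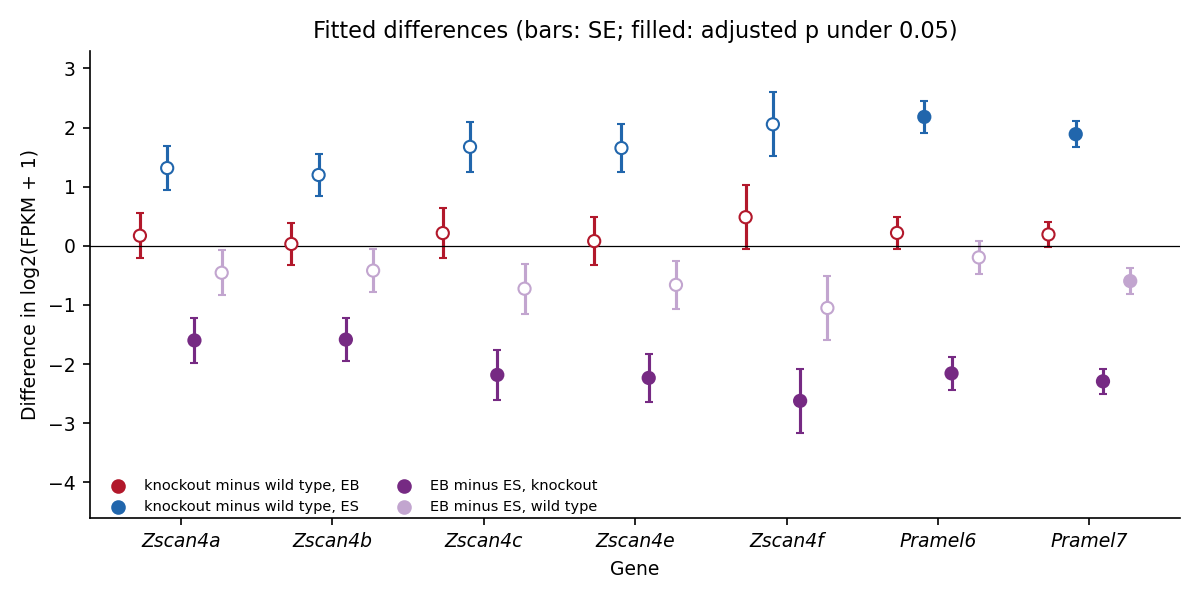
Fitted differences in log2(FPKM + 1) with their SE for the 5 tested Zscan4 copies and for Pramel6 and Pramel7, in 4 contrasts. Filled points passed limma's adjusted p of 0.05. The Zscan4 copies passed only between EB KO and ES KO, from -1.58 to -2.62.

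A list of other genes of the 2-cell stage held 59 genes, of which 37 were in the expression table, 34 were above 0 in at least 1 library and 8 passed the filter. Between ES KO and ES WT, 16 of 33 genes above 0 were higher in both ES KO libraries and 0 were lower, beside 21.2% and 14.3% of all genes above 0. This count was not tested, and it includes near-identical copies that may share reads. Most stood below 2 FPKM. Duxf3, of the Dux family, read 0.326 and 0.288 FPKM in ES KO, against 0.0886 and 0.0393 in ES WT. Usp17le, one of a cluster of near-identical deubiquitinase genes, read 4.00 and 0.612 FPKM in ES KO, against 0.252 and 0 in ES WT. Tdpoz4, a BTB domain gene, read 0.600 and 0.176 FPKM in ES KO, against 0.106 and 0 in ES WT. Duxf3, Usp17le and Tdpoz4 were each higher in both ES KO libraries, were not tested, and were chosen here after their values were seen.

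limma called 2 of the 8 tested genes of this list higher in ES KO and 0 lower, beside 0.421% and 0.0778% of all tested genes. Both called genes, Pramel7 and Pramel6, reached 1 FPKM only in the 2 ES KO libraries and so entered the test through them, which makes the count a description. The median difference over the 8 was 0.21 on the log2 scale, against 0.02 over all tested genes. Pramel6 and Pramel7 belong to the PRAME family. Pramel7, which in mouse ES cells promotes loss of the DNA methylation factor UHRF1, read 5.74 and 3.64 FPKM in ES KO, against 0.392 and 0.640 in ES WT, a difference of 1.89 ± 0.22 (SE, limma adjusted p = 0.0271). Pramel6 read 3.31 and 6.58 FPKM in ES KO, against 0.248 and 0.274 in ES WT, a difference of 2.18 ± 0.27 (limma adjusted p = 0.0326). The ES KO libraries of both stood wholly above the ES WT libraries. Unlike the Zscan4 sum, Pramel6 was the higher in ES KO replicate 2. Both calls ended in 7 of the 8 fits that left out 1 library, with limma adjusted p up to 0.158 for Pramel7 and 0.217 for Pramel6, and remained only without ES KO replicate 2 for Pramel7 and only without ES KO replicate 1 for Pramel6.

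**Figure D4:**
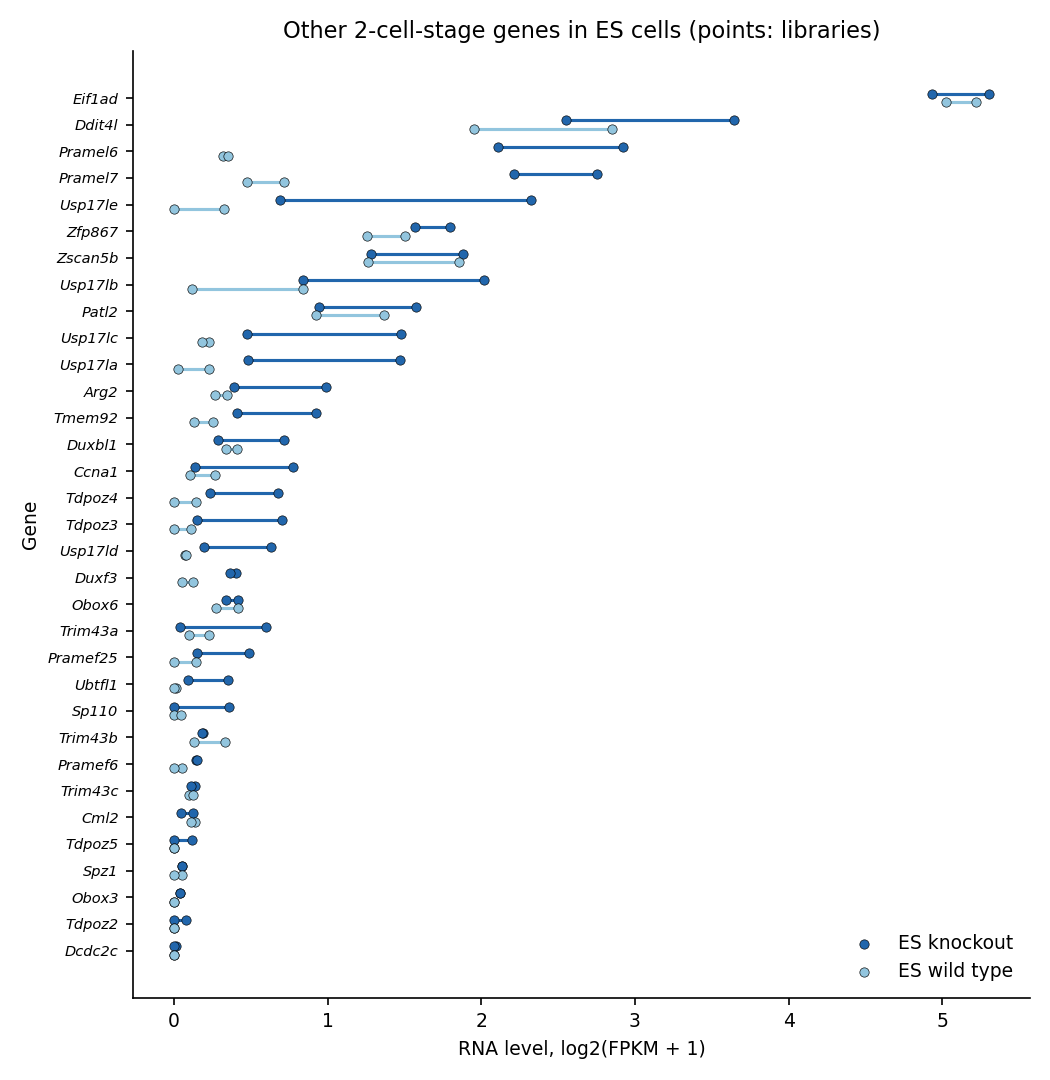
RNA level as log2(FPKM + 1) of the 33 other 2-cell-stage genes above 0 in ES cells, with 1 point per library, ES KO above ES WT within each gene. Pramel6 and Pramel7 stand apart between the groups, and Duxf3 and Usp17le lie higher in ES KO at lower levels.

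In EB, limma called 3 of 8 genes of this list higher in KO than in WT and 0 lower, beside 20% and 25.9% of all tested genes, and Pramel6 and Pramel7 were not among them. Patl2, an RNA-binding protein of oocytes, read 8.29 and 4.10 FPKM in EB KO, against 0.161 and 0.136 in EB WT, a difference of 2.58 ± 0.34 (SE, limma adjusted p = 0.00163). Duxbl1, a Dux-like homeobox gene, was higher by 0.86 ± 0.20 (limma adjusted p = 0.0121), which was lost when EB KO replicate 1 or EB WT replicate 1 was left out. It reached 1 FPKM only in the 2 EB KO libraries, so its call is a description. Zscan5b, a zinc finger gene that is also on the list of activators, was higher by 1.40 ± 0.27 (limma adjusted p = 0.00622). The median over the 8 was 0.21, against -0.06 over all tested genes. In EB KO, limma called 3 of the 8 lower than in ES KO and 2 higher, beside 12% and 17.1% of all tested genes, with differences of -2.29 ± 0.22 for Pramel7, -2.16 ± 0.27 for Pramel6, -0.54 ± 0.14 for Eif1ad, 1.53 ± 0.34 for Patl2 and 0.66 ± 0.20 for Duxbl1 (SE, limma adjusted p from 0.00137 to 0.0472). Pramel7 and Pramel6 entered this test through ES KO and Duxbl1 through EB KO, so their calls are descriptions. Of the 8 fits without 1 library, 7 ended the call of Duxbl1, 5 that of Eif1ad and 2 that of Patl2. In EB WT, limma called 1 of the 8 higher than in ES WT and 3 lower, beside 36.1% and 24.8% of all tested genes, with differences of 0.77 ± 0.18 for the zinc finger gene Zfp867, -1.33 ± 0.27 for Zscan5b, -0.95 ± 0.34 for Patl2 and -0.60 ± 0.22 for Pramel7 (SE, limma adjusted p from 0.00459 to 0.0474). With quantile normalization 0 were called higher and 4 lower. Of the 8 fits without 1 library, 2 ended the call of Zfp867, 4 that of Patl2 and 6 that of Pramel7.

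Of 7 listed activators of the 2-cell-like state, 6 were in the table and 5 were tested. Between ES KO and ES WT limma called 0 of the 5, with 0 at an unadjusted p under 0.05 and a median of -0.06, against 0.02 over all tested genes. In EB, 4 of 5 were called higher in KO than in WT and 0 lower, beside 20% and 25.9% of all tested genes. The ES cell markers moved with them, with 7 of 7 called higher and a median difference of 3.42, and their part in the activators' values was not tested. Dppa4 and Dppa2, chromatin proteins that act upstream of Dux in mouse ES cells, differed by 3.75 ± 0.24 (SE, limma adjusted p = 0.000237) and 3.33 ± 0.30 (limma adjusted p = 0.000491). Dppa4 read 88.8 and 65.2 FPKM in EB KO, against 3.57 and 6.18 in EB WT. Dppa3, a maternal factor that protects DNA methylation in the zygote, differed by 3.53 ± 0.44 (limma adjusted p = 0.00126). In ES KO Dppa4 read 78.7 and 67.4 FPKM, a range that overlapped with EB KO, while the Zscan4 sum of EB KO lay below that of ES KO. In EB WT all 5 were called lower than in ES WT, beside 24.8% of all tested genes, with differences of -4.01 ± 0.30 for Dppa2, -3.75 ± 0.24 for Dppa4, -2.55 ± 0.44 for Dppa3, -1.33 ± 0.27 for Zscan5b and -0.45 ± 0.11 for Nelfa, a subunit of the elongation factor NELF (SE, limma adjusted p from 4.46e-05 to 0.00957). The Nelfa call ended without ES WT replicate 1. In EB KO limma called 0 of the 5 against ES KO, with 0 at an unadjusted p under 0.05.

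All 41 listed repressors of the 2-cell-like state were tested. Between ES KO and ES WT limma called 0, with 9 at an unadjusted p under 0.05 and a median of -0.03, against 0.02 over all tested genes. In EB the ES cell markers moved with genotype, with 7 of 7 called higher in KO and a median difference of 3.42. Their part in the repressors' values was not tested. Of the 41 repressors, 22 were higher in EB KO than in EB WT and 7 lower, while 20% and 25.9% of all tested genes were. Their median was 0.37, against -0.06 over all tested genes. The smallest adjusted p among them belonged to Hells, a chromatin remodeller of DNA methylation, at 1.55 ± 0.09, and to Rif1, a replication timing factor, at 1.79 ± 0.12 (SE, limma adjusted p = 0.000167 and 0.000252). The DNA demethylase Tet1 was at 1.90 ± 0.14, the zinc finger factor Zfp57 of imprinted genes at 1.95 ± 0.15, the Polycomb-type protein L3mbtl2 at 1.47 ± 0.11 and nucleolin, Ncl, at 1.29 ± 0.10 (limma adjusted p from 0.000323 to 0.000369). In EB KO, 10 were lower than in ES KO and 4 higher, beside 12% and 17.1% of all tested genes, and 15 and 3 with library totals of 1000000. With the smallest adjusted p were Tet1 at -1.71 ± 0.14, the corepressor Trim28 at -0.71 ± 0.09, Zfp57 at -1.06 ± 0.15, the histone deacetylase Hdac2 at 0.57 ± 0.08, Tet2 at -1.12 ± 0.18 and the H3K9 methyltransferase Ehmt2 at -0.63 ± 0.11 (SE, limma adjusted p from 0.00102 to 0.00736). In EB WT, 25 were lower than in ES WT and 8 higher, beside 24.8% and 36.1% of all tested genes, and the 6 with the smallest adjusted p were Tet1 at -3.96, Zfp57 at -3.40, L3mbtl2 at -2.03, Hells at -1.82, Ncl at -1.73 and Trim28 at -1.71 (limma adjusted p from 1.97e-05 to 3.91e-05).

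Across the 8 libraries, the genes whose log2(FPKM + 1) followed the Zscan4 sum most closely among 12877 named genes were Lama3, a laminin chain (Pearson's r = 0.987), the homeobox gene Rhox2a (r = 0.986) and the LIM kinase Limk1 (r = 0.980). After them came Ogdh, an enzyme of the citric acid cycle, at r = 0.979, the dynein light chain gene Tcte3 at 0.977, the annexin Anxa8 at 0.977, the homeobox gene Tlx3 at 0.976 and Rhbdf2, an inactive rhomboid, at 0.976. These are descriptions with no test, since libraries of a group share their condition and 36 genes had an r above 0.95. Rhox2a read 0 and 0.0984 FPKM in EB KO, 0 and 0.0345 in EB WT, 3.07 and 1.35 in ES KO, and 1.05 and 0.285 in ES WT. As in the Zscan4 sum, replicate 1 was the higher library in both ES groups. Pramel7 had an r of 0.940 and Pramel6 of 0.817, while Dppa4 had 0.583 and Patl2 -0.02.

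The histone marks were read for 8 members. The deposited tables give 1 signal value per gene and library, so there is no replicate check and no test. Nearly all values were multiples of 1 smallest step, 0.0267 in most libraries and 0.04 for H3K27me3 in EB WT, and they rose with the length of the gene across genes, so only the same gene is compared between libraries. H3K27me3, the mark set by Polycomb repressive complexes, had a median over all genes of 67 steps in EB KO, 39 in EB WT, 61 in ES KO and 62 in ES WT. The 5 Zscan4 copies in the table summed to 76 steps in EB KO, 18 in EB WT, 63 in ES KO and 79 in ES WT. In the deposited unit, where a step is larger in EB WT, that sum was 2.03 in EB KO, 0.720 in EB WT, 1.68 in ES KO and 2.11 in ES WT. Zscan4f alone had 20 steps in EB KO, 2 in EB WT, 13 in ES KO and 16 in ES WT. The EB WT library was the lowest of the 4 for each of the 5 copies, and it was also the lowest in its median. In the deposited unit the medians over all genes lay closer together than in steps. They were 1.79 in EB KO, 1.56 in EB WT, 1.63 in ES KO and 1.65 in ES WT.

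On the signal scale, with the smallest step of the 4 libraries added to every value, 3 of the 8 members in the table were at least 2-fold higher in EB KO than in EB WT, and 9.31% of all genes. These were Zscan4f, with a log2 ratio of 2.39, Zscan4d, with 1.71, and Zscan4c, with 1.36. Among genes of at most 23 steps in all 4 libraries, a comparison group set after the data were seen, the share was 15.9%. That group left out genes under the smallest step in all 4 libraries, while the 8 members include Tcstv1 and Tcstv3, which were under it. The log2 ratio of the Zscan4 sum was 1.46 and the median of all genes 0.12. Between EB WT and ES WT, 4 of 8 were at least 2-fold lower (Zscan4b, Zscan4d, Zscan4e and Zscan4f), against 12.8% of all genes and 18.8% of those of at most 23 steps. Zscan4d and Zscan4f had log2 ratios of -1.93 and -2.09. With each library's own step added, an alternative chosen after seeing the data, Zscan4b was at -0.90 and 3 of 8 were past 2-fold. The comparisons share the EB WT library, in which these values are few steps.

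In ES cells the Zscan4 H3K27me3 sum of ES KO over ES WT had a log2 ratio of -0.32. Of the 8 members only Zscan4e passed 2-fold, lower in ES KO with a log2 ratio of -1.08, against 5.75% of all genes. Zscan4c lay the other way, at 18 steps in ES KO and 12 in ES WT. In EB KO against ES KO 0 of the 8 members passed 2-fold in either direction, while 11.2% of all genes were higher and 3.8% lower. Zfp352 had 23 steps in EB KO, 11 in EB WT, 20 in ES KO and 16 in ES WT. In the deposited unit, where a step is larger in EB WT, it was at 0.614 in EB KO, 0.440 in EB WT, 0.534 in ES KO and 0.427 in ES WT. Tcstv1 and Tcstv3 were below 1 step in all 4 libraries of both marks, as were 0.616% of all genes for H3K27me3 and 1.80% for H3K4me3. Whether reads could be assigned to these genes is not given in the sources used here. Their values are therefore not read as absence of a mark.

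H3K4me3, the mark of active promoters, was read at few steps for every member. The 5 Zscan4 copies had at most 7 steps each, and their sum was 11 steps in EB KO, 11 in EB WT, 22 in ES KO and 13 in ES WT. Between ES KO and ES WT, 2 of the 8 members were at least 2-fold higher, Zscan4b at 7 steps in ES KO against 3 in ES WT and Zscan4d at 6 against 2, while 2.38% of all genes and 12.4% of those of at most 7 steps were. In EB KO against EB WT, Zscan4d was 2-fold higher, at 5 steps in EB KO and 2 in EB WT, against 10.4% of all genes, and Zscan4f was lower, below 1 step in EB KO and at 2 in EB WT, against 4.96%. In EB KO against ES KO, Zscan4c was higher, against 2.3% of all genes, and Zscan4b, Zscan4e and Zscan4f were lower, against 4.53%. Between EB WT and ES WT, Zscan4e was lower, at 1 step in EB WT and 3 in ES WT, against 13.4% of all genes. With so few steps these ratios rest on differences of 2 to 5 steps. Between ES KO and ES WT the share past 2-fold was far larger among genes of few steps than among all genes, at 12.4% against 2.38%. The genes of few steps here likewise left out those under the smallest step in every library. For the other H3K4me3 comparisons only the share of all genes is given, which is no like measure for these members.

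**Figure D5:**
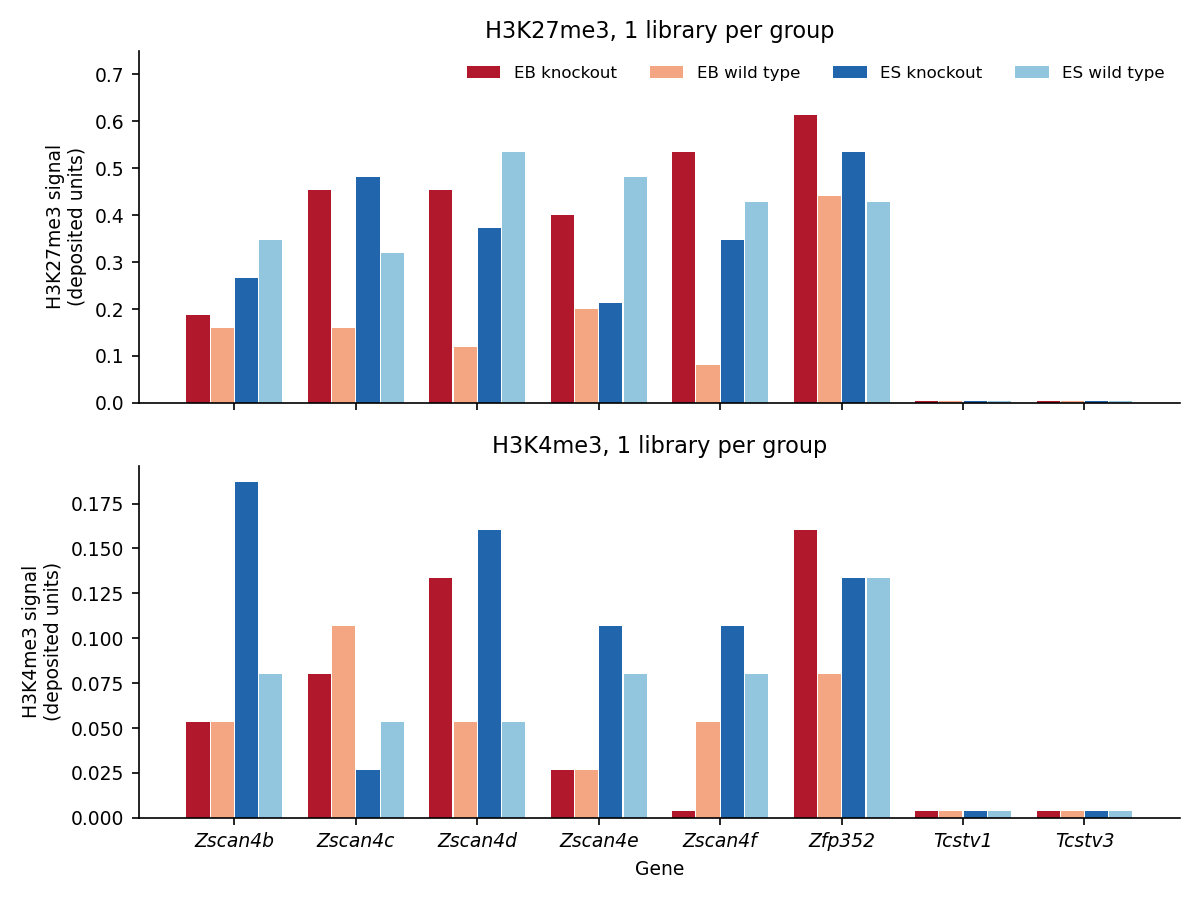
Deposited H3K27me3 (top) and H3K4me3 (bottom) signal of the 8 genes in the tables, with 1 bar per library in the order EB KO, EB WT, ES KO and ES WT. The EB WT bars of H3K27me3 are the lowest for every Zscan4 copy, and H3K4me3 stays below 0.19 throughout.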

How the data were processed

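RNA levels were analysed in 8 libraries and histone marks in 8 ChIP libraries; the 4 input libraries were not analysed here. The authors deposited FPKM per gene, with the column names that Cufflinks writes, per the file headers. The build mm10 and the tools HTSeq, DESeq2, Bowtie2, Cufflinks 2.2.1 and STAR 2.6.0a are named in the submitters' processing notes, which give none a role. The authors deposited 1 ChIP signal value per gene, and the window and mapped reads behind it are not given in the sources used here. A column was tied to a sample only through its name.

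For the FPKM table, the entry of highest mean was kept for each repeated symbol, which left out 120 of 53560 entries. The filter was 1 FPKM or more in 2 or more libraries, which 15428 genes passed. limma 3.58.1 (R 4.3.3) was run on log2(FPKM + 1) of these genes, with a mean for each of the 4 groups, a trended eBayes step and 5 contrasts. The fit had 4 residual degrees of freedom, 7.05 after moderation. Two-sided p-values were adjusted by Benjamini-Hochberg across every tested gene, and those under 0.05 were called. A change on this scale understates that of low genes. The fit was tested on simulated data. ChIP ratios added the smallest step of a mark's 4 libraries to each value; the design assumed promoter RPKM, which the values did not bear out. Group values are mean ± SD, and 1 was added to the 0-based locus starts.

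The genes named are the 9 members, called genes of 4 lists (up to 6 per list and contrast), the 8 most alike in pattern, Pou5f1 and Chaf1a; others are said to be chosen after their values were seen or are cell type markers. The list of further Zscan4 pseudogenes had 0 of 3 genes in the table. Members and lists were chosen with earlier results of these data known. Alternatives were the pseudocount, filter, scaling, a replicate block, fewer groups and leaving out each library.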

Additional observations from a re-analysis of the deposited data

Results flagged for a closer look

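For the genes below, the KO effect differed between EB and ES by the test of the difference itself (limma, adjusted over 15428 genes). The values are the log2 difference between KO and WT in EB minus that in ES, and no cause was tested. Among activators of the 2-cell-like state it was 3.81 for Dppa4 (limma adjusted p = 0.00192), 3.40 for Dppa2 (0.00354), 3.40 for Dppa3 (0.00889) and 1.38 for Zscan5b (0.0346). The Zscan5b call ended in 6 of the fits without 1 library, with limma adjusted p up to 0.0970. Among other 2-cell-stage genes it was 2.47 for Patl2 (limma adjusted p = 0.0114), -1.70 for Pramel7 (0.00892) and -1.96 for Pramel6 (0.0114). Both passed the filter on low values only through the ES KO libraries, which favours a lower effect in EB than in ES. Of the 41 repressors, 14 were called with a higher effect in EB and 4 with a lower one, beside 12.7% and 18.6% of all tested genes. The 6 with the smallest adjusted p were Hells (1.57), Rif1 (1.94), Tet1 (2.24), Zfp57 (2.34), L3mbtl2 (1.66) and Ncl (1.43). Their limma adjusted p ran from 0.00184 to 0.00240. The ES cell markers moved in the same test, with 7 of 7 called higher and a median of 3.72. The part of these markers in the values above was not tested. The 5 tested Zscan4 copies did not pass this test.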

How the results depend on the processing

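Of 370 values of single tested Zscan4 copies under the alternatives, 343 kept their side of the threshold, 15 passed it newly and 12 no longer passed it. Of the 370, 0 turned direction, but the lowest Zscan4b difference between EB KO and EB WT was 0 and so had none. The cause of these changes was not tested. Zscan4 copies called lower in EB KO than in ES KO numbered 2 with no filter on low values, 2 with only the groups of the contrast fitted and 1 to 5 without 1 library, against 5. Without the filter, which tested all 9 members, Zscan4d was at -1.62 (limma adjusted p = 0.0827) there and at 1.26 (limma adjusted p = 0.414) between ES KO and ES WT. Copies called lower in EB WT than in ES WT numbered 4 with a pseudocount of 0.1, 2 with only those groups and 0 to 2 without 1 library, against 0. For the difference of the KO effects they numbered 0 to 5 without 1 library. No alternative called a copy between KO and WT in ES or in EB. Over all genes, calls higher in ES KO than in ES WT were 35 (pseudocount 0.1), 43 (no filter), 36 (mean of at least 5 FPKM), 39 (quantile normalization), 43 (replicate block), 0 (only those groups) and 2 to 38 (without 1 library), against 65; calls lower were 6, 4 and 1 with the pseudocount of 0.1, the mean of at least 5 FPKM and only those groups, 7 with totals of 1000000 and 4 to 10 without 1 library, against 12. Between EB KO and ES KO, higher and lower calls were 1440 and 1029 with only those groups, and 1374 to 2299 and 925 to 1606 without 1 library. With a mean of at least 5 FPKM, calls were 3324 higher in EB WT than in ES WT, 1673 lower in the difference of the KO effects and 2321 lower in EB KO than in EB WT. Without 1 library these last 2 were 1621 to 2783 and 2464 to 3930, and the calls higher 1127 to 1758 and 1826 to 3042. A mean of at least 5 FPKM tested no member. With a replicate block, 0 copies were called between ES KO and ES WT (limma adjusted p from 0.117 to 0.167); same-numbered libraries deviated together with correlations from 0.07 to 0.31, and with 2 per group they share only a number. The Zscan4 sum of EB KO over ES KO was 0.0134 to 0.0989 for single replicates, against 0.0323.

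With 10 steps added to the ChIP values, members past 2-fold in H3K27me3 numbered 1 higher in EB KO than in EB WT, 0 lower in ES KO than in ES WT and 2 lower in EB WT than in ES WT, and 0 in every H3K4me3 comparison. With a median scaling, 1 was higher in ES KO than in ES WT in H3K4me3. With a fold of 1.5, H3K27me3 had 2 higher in EB KO than in ES KO. H3K4me3 then had 2 higher in EB KO than in EB WT, 1 lower in ES KO than in ES WT, and 1 higher and 2 lower in EB WT than in ES WT. FPKM without read counts, and marks of few steps, limit what these values can show.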
